A study of Mus musculus with 6 samples.

Results

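Chd4 binding was compared between 2 libraries of mouse primary neural stem cells in which Seh1 was perturbed in different ways, by deletion (iKO) and by silencing (siSeh1). The iKO library came from cells labelled mutant and grown with 4-OH-TAM (4-hydroxytamoxifen) in the growth medium, and the siSeh1 library from cells labelled wild type in growth medium. The labels do not spell out iKO, siSeh1 or siSCR; they are read here as inducible deletion of Seh1, silencing of Seh1 and a scrambled control of the silencing. How the deletion was driven and how many animals or cultures were used is not stated in the labels. All cells were cultured from newborn mouse cortex with EGF and bFGF, and each group had 1 library, so no p-value is given and intervals cover counting error only. The 2 lists made up 2 of the 6 libraries of the series, and Chd4 libraries of cells labelled siSCR and Ctrl, both labelled wild type and in growth medium, served as background. Peak lists do not measure expression, so the cell type and the loss of Seh1 could not be checked with marker genes.

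Chd4 is the motor subunit of NuRD, a nucleosome remodelling and histone deacetylase complex that slides nucleosomes and removes acetyl groups from histones at promoters and enhancers. In the developing cortex NuRD is known to help silence genes as progenitors change state. Seh1 is a nucleoporin of the Y-shaped scaffold of the nuclear pore, and it is also a subunit of the GATOR2 complex that signals amino acid supply to mTORC1.

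The iKO list held 21294 peaks and the siSeh1 list 26935, out of 97783 peaks in the 6 lists of the series. Each peak was a single position, called a summit here, with a peak score. The authors' scale for it is unknown, so scores were ranked only within a list. A promoter gene had a summit at most 1000 bp from its transcription start site (TSS), and summits of the 2 lists under 240 bp apart were called shared. There were 1245 promoter genes in iKO, which included 5.18% of all RefSeq protein-coding genes, and 2750 in siSeh1, which included 11.8%. The background lists were far shorter, with 2606 peaks in siSCR and 1154 in Ctrl, and they had a promoter peak at 1.63% and 0.0183% of all protein-coding genes. The depth of each library is unknown.

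Promoter peaks of Chd4 at 729 genes were found in both libraries, covering 3.19% of all protein-coding genes. They made up 58.6% of the iKO promoter genes (95% exact binomial interval 55.8 to 61.3%) and 26.5% of the siSeh1 promoter genes (24.9 to 28.2%). The promoters of highest score were largely the same: all of the first 50 iKO genes were in the siSeh1 list, and 44 of the first 50 siSeh1 genes were in the iKO list. Away from promoters, by contrast, 1.48% of the iKO peaks (1.32 to 1.66%) had a siSeh1 summit nearby. Among gene lists, the shared promoters covered 12 of 26 genes of protein folding in the endoplasmic reticulum, 11 of 26 of sterol synthesis and uptake and 8 of 36 of mitosis, beside the 3.19% of all protein-coding genes. These are 3 of 24 lists, all chosen with earlier results of these data known, so the counts are a description and not a test. Of the shared promoters with a sequence, 84.3% (81.1 to 87.2%) carried the letters CCAAT.

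The letters CCAAT, on either strand, form a promoter box known to be bound by the trimeric factor NF-Y. The first 5 shared genes by mean rank whose promoter sequence was in the RefSeq table are shown to let the strongest sites be read directly. Each line gives the 250 bases before the start site, 5′ to 3′ on the strand of the gene, with CCAAT or its reverse complement ATTGG in capitals.

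Denr: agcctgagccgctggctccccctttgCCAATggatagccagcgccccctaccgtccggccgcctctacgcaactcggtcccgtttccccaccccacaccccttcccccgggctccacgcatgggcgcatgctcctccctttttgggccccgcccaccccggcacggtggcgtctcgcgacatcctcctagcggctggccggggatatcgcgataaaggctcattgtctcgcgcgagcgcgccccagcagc
Upf1: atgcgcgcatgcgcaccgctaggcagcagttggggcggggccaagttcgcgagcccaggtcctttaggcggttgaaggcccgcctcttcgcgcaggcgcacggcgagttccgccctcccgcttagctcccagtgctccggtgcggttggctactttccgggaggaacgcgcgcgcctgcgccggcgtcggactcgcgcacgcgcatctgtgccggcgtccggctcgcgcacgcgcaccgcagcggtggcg
Cks2: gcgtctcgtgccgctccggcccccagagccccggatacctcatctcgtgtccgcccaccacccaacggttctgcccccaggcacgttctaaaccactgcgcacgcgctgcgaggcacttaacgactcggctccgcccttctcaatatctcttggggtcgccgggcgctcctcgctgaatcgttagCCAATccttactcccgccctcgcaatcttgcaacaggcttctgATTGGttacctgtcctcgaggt
Ehmt1: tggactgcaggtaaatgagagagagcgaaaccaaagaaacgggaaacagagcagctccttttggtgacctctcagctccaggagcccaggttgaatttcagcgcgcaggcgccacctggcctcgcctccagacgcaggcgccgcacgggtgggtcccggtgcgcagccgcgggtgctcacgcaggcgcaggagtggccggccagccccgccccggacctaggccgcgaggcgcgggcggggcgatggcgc
Camta1: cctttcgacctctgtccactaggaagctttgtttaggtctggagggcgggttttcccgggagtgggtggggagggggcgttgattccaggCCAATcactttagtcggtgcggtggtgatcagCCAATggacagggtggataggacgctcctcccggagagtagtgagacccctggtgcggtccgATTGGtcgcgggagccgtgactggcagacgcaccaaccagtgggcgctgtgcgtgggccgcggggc

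These stretches lie on GRCm38.p6, the assembly that mm10 represents, with Denr at chr5:123907025-123907274 (plus strand), Upf1 at chr8:70353280-70353529 (minus strand), Cks2 at chr13:51644982-51645231 (plus strand), Ehmt1 at chr2:24919610-24919859 (minus strand) and Camta1 at chr4:151861769-151862018 (minus strand). Camta1 carried 3 boxes in these 250 bases and Cks2 carried 2, while Upf1 and Ehmt1 carried 0. The nearest box lay 13 bp from the siSeh1 summit at Cks2 and 25 bp from it at Camta1. At Denr the single box lay 143 bp from the siSeh1 summit. The Upf1 and Ehmt1 promoters had 72.8% and 69.2% G or C, so promoters at the top of both lists did not all share the box.

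A second set shows the best-ranked shared member, with a sequence in the table, of each of 4 gene lists described below: Pdia4 (endoplasmic reticulum folding), Hmgcs1 (sterol synthesis), Ezh2 (Polycomb) and Ttk (mitosis).

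Pdia4: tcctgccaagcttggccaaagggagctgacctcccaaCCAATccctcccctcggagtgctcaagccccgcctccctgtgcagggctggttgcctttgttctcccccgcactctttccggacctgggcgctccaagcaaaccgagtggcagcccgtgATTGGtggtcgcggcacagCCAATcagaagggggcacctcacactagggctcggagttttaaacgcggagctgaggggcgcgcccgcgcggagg
Hmgcs1: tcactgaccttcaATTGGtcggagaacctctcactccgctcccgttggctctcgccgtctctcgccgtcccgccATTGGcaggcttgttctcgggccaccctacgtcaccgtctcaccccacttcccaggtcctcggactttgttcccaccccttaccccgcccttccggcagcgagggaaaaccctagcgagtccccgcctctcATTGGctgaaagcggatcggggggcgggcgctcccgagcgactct
Ezh2: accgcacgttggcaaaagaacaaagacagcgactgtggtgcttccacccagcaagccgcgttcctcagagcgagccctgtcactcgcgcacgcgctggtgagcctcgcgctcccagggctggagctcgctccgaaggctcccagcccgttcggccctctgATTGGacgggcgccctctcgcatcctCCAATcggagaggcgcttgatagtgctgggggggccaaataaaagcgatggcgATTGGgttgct
Ttk: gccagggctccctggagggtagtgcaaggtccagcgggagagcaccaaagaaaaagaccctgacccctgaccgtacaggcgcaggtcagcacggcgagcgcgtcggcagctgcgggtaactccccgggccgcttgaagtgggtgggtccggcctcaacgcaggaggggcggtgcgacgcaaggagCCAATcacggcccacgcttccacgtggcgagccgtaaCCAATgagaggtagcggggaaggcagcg

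They lie with Pdia4 at chr6:47813513-47813762 (minus strand), Hmgcs1 at chr13:119690101-119690350 (plus strand), Ezh2 at chr6:47595031-47595280 (minus strand) and Ttk at chr9:83834439-83834688 (plus strand). Pdia4, Hmgcs1 and Ezh2 each carried 3 boxes and Ttk carried 2 in these bases. The siSeh1 summit lay 30 bp from the nearest box at Pdia4, 35 bp at Hmgcs1, 12 bp at Ezh2 and 17 bp at Ttk.

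The last set shows promoters found in 1 list alone, with no summit of the other list within 1000 bp: Gpx1 and Ift22 from iKO, and Qrich1 and Rcl1 from siSeh1.

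Gpx1: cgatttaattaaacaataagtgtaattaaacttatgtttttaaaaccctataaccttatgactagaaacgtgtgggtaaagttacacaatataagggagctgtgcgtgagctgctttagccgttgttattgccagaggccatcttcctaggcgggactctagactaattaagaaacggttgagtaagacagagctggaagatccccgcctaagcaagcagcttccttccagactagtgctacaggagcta
Ift22: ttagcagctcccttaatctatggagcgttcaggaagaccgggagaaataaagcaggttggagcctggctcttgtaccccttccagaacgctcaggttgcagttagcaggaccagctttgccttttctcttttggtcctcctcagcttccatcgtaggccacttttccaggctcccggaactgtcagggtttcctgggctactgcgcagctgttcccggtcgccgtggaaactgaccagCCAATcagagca
Qrich1: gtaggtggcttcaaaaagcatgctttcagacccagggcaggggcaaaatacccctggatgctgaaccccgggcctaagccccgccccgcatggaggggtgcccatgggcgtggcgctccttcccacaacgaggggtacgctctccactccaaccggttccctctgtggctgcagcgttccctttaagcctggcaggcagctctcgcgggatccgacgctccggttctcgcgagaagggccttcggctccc
Rcl1: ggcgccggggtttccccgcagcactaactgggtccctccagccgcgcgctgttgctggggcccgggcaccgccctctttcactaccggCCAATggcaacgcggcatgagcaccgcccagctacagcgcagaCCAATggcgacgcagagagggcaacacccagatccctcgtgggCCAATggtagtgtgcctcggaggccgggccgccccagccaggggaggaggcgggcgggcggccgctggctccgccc

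They lie with Gpx1 at chr9:108338830-108339079 (plus strand), Ift22 at chr5:136907900-136908149 (plus strand), Qrich1 at chr9:108516837-108517086 (plus strand) and Rcl1 at chr19:29101125-29101374 (plus strand). Rcl1 carried 3 boxes and Ift22 carried 1. Gpx1 and Qrich1 carried 0 here, and the Qrich1 window gained 1 when the 50 bases after the start site were added. The Gpx1 sequence had 42% G or C, the lowest of the 13 shown.

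The 15 shared genes ranked highest by mean rank were described first. Denr, a factor of translation reinitiation, had the highest iKO promoter score of 28.5 and a score of 33.1 in siSeh1 (rank 10), with summits 18 bp apart. Upf1, the helicase of nonsense-mediated mRNA decay, scored 27.8 in iKO and 31.8 in siSeh1, with summits 8 bp apart. Cks2, a small partner of cyclin-dependent kinases, scored 18.4 in iKO and 51.8 in siSeh1, where it ranked 2. Ehmt1, a histone H3 lysine 9 methyltransferase, scored 19.2 and 38.7. Each of these 4 genes stood among the first 13 promoter genes of both lists.

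Txnl4a, a component of the spliceosome, scored 18.2 in iKO and 30.5 in siSeh1. Camta1, a calmodulin-binding transcription activator, scored 26.7 and 27.2. Kpnb1, the nuclear import receptor importin beta, scored 15.5 and 31.8, and Ilf2, an RNA-binding protein, scored 15.9 and 29.8. Wdr62, a spindle pole protein whose mutation causes microcephaly, scored 16.0 and 26.7, with summits 1 bp apart. Rbm15, which recruits the RNA methylation machinery, scored 19.5 and 24.0. The others included Fam204a, Mtmr4, Rab40c and Arrdc4. All 15 had their summit in the annotated promoter in both lists. Except for Rbm15, each of the 15 was a Chd4 promoter gene in the siSCR control as well.

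Sharing was less frequent at low scores. Of the iKO promoter genes, 97 of the first 100, 183 of the first 200, 424 of the first 500 and 678 of the first 1000 were in siSeh1. Of the siSeh1 promoter genes, 87 of the first 100, 162 of the first 200, 334 of the first 500 and 531 of the first 1000 were in iKO. In 10 equal groups of the iKO genes by score the share was 95.2% (89.8 to 98.2%) in the highest group and 22.6% (15.6 to 31.0%) in the lowest. In 10 groups of the siSeh1 genes it was 77.5% (72.1 to 82.3%) and 4% (2.01 to 7.04%). The siSeh1 list was the longer one, and its lowest group ended at a score of 2.03, close to the 2.02 at which the iKO promoter peaks ended.

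**Figure D1:**
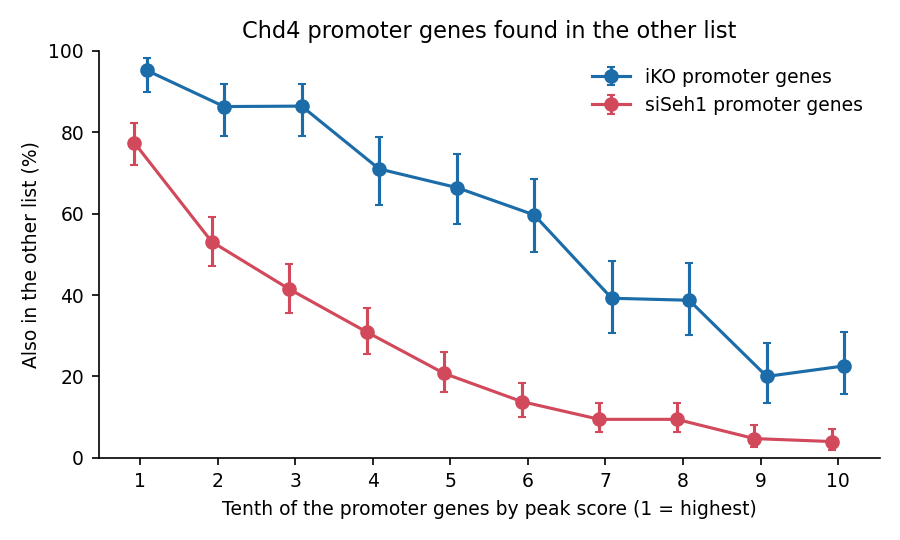
Percent of Chd4 promoter genes also found in the other list (y axis) in 10 equal groups of the promoter genes by peak score (x axis, 1 is the highest), for iKO (blue) and siSeh1 (red). Bars are exact 95% binomial intervals; the highest and lowest groups stand at 95.2% and 22.6% in iKO and at 77.5% and 4% in siSeh1.

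The median iKO score was 5.70 (quartiles 4.62 and 7.73) for the 729 shared genes and 3.75 (3.08 and 4.74) for the 516 genes found in iKO alone. In siSeh1 it was 9.11 (6.28 and 13.3) for the shared genes and 4.51 (3.35 and 6.28) for the 2021 genes found there alone. Across the 729 shared genes the 2 scores had a Spearman rho of 0.467, given as a description since genes are not replicates. Among these genes, 234 (32.1%, 28.7 to 35.6%) were promoter genes of siSCR too. Of the genes in iKO alone 19 were (3.68%, 2.23 to 5.69%), and of those in siSeh1 alone 73 were (3.61%, 2.84 to 4.52%). Beside these 3 shares stand the 1.63% of all protein-coding genes with a siSCR promoter peak. In Chd4 Ctrl, where 4 of all 21900 protein-coding genes had a promoter peak, 0 of the 729 shared genes did, with an upper limit of 0.505%. A list with so few promoter peaks says nothing about the shared genes.

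**Figure D2:**
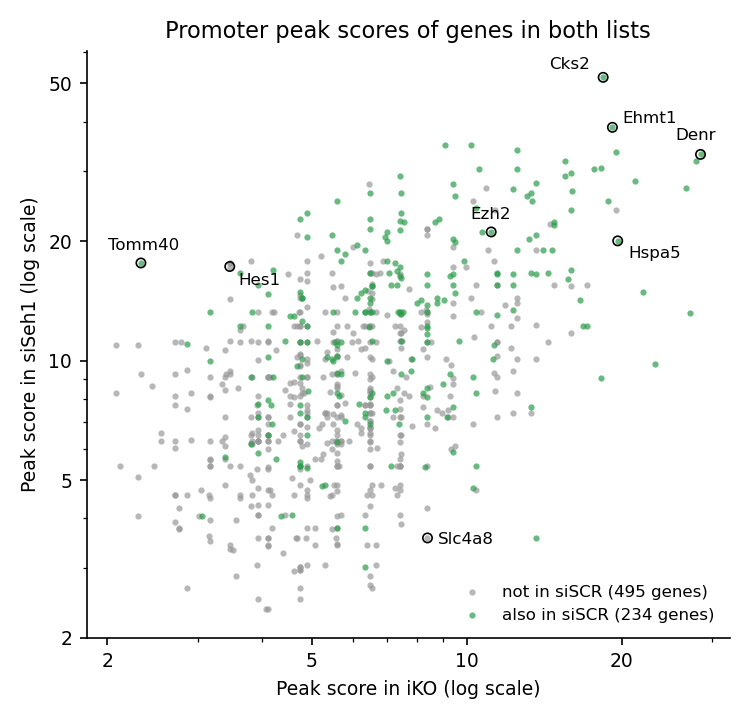
Peak score in iKO (x axis, log scale) against peak score in siSeh1 (y axis, log scale) for the 729 genes with a promoter peak in both lists, 1 point per gene. Green points are the 234 genes with a siSCR promoter peak; Denr, Cks2 and Ehmt1 lie high in both lists, Slc4a8 ranks higher in iKO than in siSeh1, and Tomm40 the reverse.

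Some shared genes held very different places in the 2 lists, as the plot of both scores shows. Slc4a8, a bicarbonate transporter, ranked 164 in iKO and 2139 in siSeh1. Atp5g1, the c subunit of mitochondrial ATP synthase, Shmt1, a serine hydroxymethyltransferase, and Sfxn5 were also among the 5 genes placed highest in iKO relative to siSeh1. The summits of the 5 lay 42 to 425 bp apart.

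In the other direction Tomm40, the channel of the mitochondrial outer membrane import complex, scored 17.6 in siSeh1 (rank 101) and 2.33 in iKO (rank 1218.5, ties averaged). Sun1, an inner nuclear membrane protein that links the nucleus to the cytoskeleton, scored 10.9 and 2.08. Nfyc, the C subunit of NF-Y, scored 10.9 in siSeh1 and 2.30 in iKO, but the 2 summits stood at different start sites of the gene, 9482 bp apart. Rnf26, a ubiquitin ligase, and St3gal5, the sialyltransferase that makes ganglioside GM3, scored 11.1 and 9.23 in siSeh1. Of these 5 genes, Tomm40 was also in siSCR.

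Genes found in 1 list alone were next described, by rank. In siSeh1 the top promoter score was 149, at Sox11, which encodes a factor of neuronal differentiation, at 27342018 on chromosome 12 in its single exon. The iKO list held a peak of score 28.5 in the same exon, 460 bp away and 1160 bp from the start site, just outside the promoter window. Qrich1 scored 33.7 (rank 8), Gsk3b, a kinase of Wnt signalling, 23.1, and Hmmr, a spindle protein, 23.0. Rcl1, of ribosomal RNA processing, scored 22.7, and Abhd2 and Rap2b, a Ras-related GTPase, each 21.5. Kif1bp, a kinesin-binding protein, scored 20.2, Mlec, a lectin of the endoplasmic reticulum, 19.2, and Jup, the junction protein plakoglobin, 19.0. Sox11, Qrich1, Abhd2 and Mlec also had a siSCR promoter peak.

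In iKO the first gene absent from siSeh1 was Gpx1, a glutathione peroxidase, with a score of 12.5 and rank 56. Its summit lay in an exon, 948 bp after the start site. Glyr1 scored 11.5 and Pdp1, the pyruvate dehydrogenase phosphatase, 10.3. They were followed by Kdm4d, a histone demethylase (9.42), Ift22, of intraflagellar transport (9.38), Ubxn6 (9.38), Kbtbd8os (9.30), and Dnajb11, Immp1l and Mllt1 (8.39 each). Glyr1 was the one of these 10 with a siSCR promoter peak.

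Several of these genes were absent from the other list by name rather than by position. The deposited annotation names the nearest start site, and summits of the 2 lists that lay close together were at times assigned to neighbouring genes. For Glyr1 the siSeh1 summit lay 107 bp away and was assigned to Ubn1, for Kdm4d 85 bp away and to Cwc15, for Dnajb11 55 bp away and to Tbccd1, and for Immp1l 54 bp away and to Elp4. For Hmmr the iKO summit lay 49 bp away and was assigned to Nudcd2. The best promoter peak was itself shared for 28 of the 516 genes in iKO alone (5.43%, 3.64 to 7.75%) and for 30 of the 2021 in siSeh1 alone (1.48%, 1.00 to 2.11%). Among the first 10 named genes it was shared for 7 in iKO and for 1 in siSeh1.

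Shared promoter summits sat just before the start site. The best promoter summit lay 0 to 200 bp upstream for 65.4% of the shared genes in iKO (61.9 to 68.9%) and 68.7% in siSeh1 (65.2 to 72.1%). For genes in siSeh1 alone the share was 48.0% (45.8 to 50.2%) and for genes in iKO alone 29.3% (25.4 to 33.4%). The summits of the 2 lists lay a median of 52 bp apart over the 729 genes.

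The gene lists were described by function, beginning with the endoplasmic reticulum, whose chaperones fold secreted proteins and whose stress sensors start the unfolded protein response. Of 26 genes, 14 had a Chd4 promoter peak in iKO, 17 in siSeh1 and 12 in both, and 11 had one in siSCR, beside 5.18%, 11.8%, 3.19% and 1.63% of all protein-coding genes. Hspa5, the chaperone BiP, scored 19.6 in iKO (rank 8) and 20.0 in siSeh1. Eif2ak3, the stress kinase PERK, scored 15.9 and 16.9, Pdia4, a disulfide isomerase, 13.4 and 25.2, P4hb, another, 10.4 and 24.3, and Calr, the chaperone calreticulin, 11.3 and 9.31. Xbp1, a transcription factor of the response, scored 6.49 and 5.41. Of the 2 members in iKO alone, Dnajb11 and Hsp90b1, both had a siSeh1 summit nearby, at 55 and 40 bp, that was assigned to another gene. In siSeh1 alone stood Creld2 (14.4), Sel1l (10.2), Canx (8.29), Edem1 (6.28) and Syvn1 (3.05).

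Of 26 genes of sterol synthesis and uptake, 12 were in iKO, 19 in siSeh1 and 11 in both, and 5 were in siSCR, beside the same shares of all genes. Stard4, a sterol carrier, scored 14.8 in iKO and 15.5 in siSeh1, and Insig1, which retains the sterol sensor in the endoplasmic reticulum, 11.5 and 13.0. Fdft1, squalene synthase, scored 11.3 and 24.0, and Hmgcs1, an early synthase of the pathway, 9.27 and 16.3. Srebf2, the master transcription factor of the pathway, scored 6.38 in siSeh1 alone. Of 15 genes of fatty acid synthesis, 5 were in iKO, 9 in siSeh1 and 4 in both, with Fads2, a desaturase, at 9.27 and 9.23 and Fasn, fatty acid synthase, at 3.93 and 8.14.

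Of 36 genes of mitosis and the kinetochore, 9 were in iKO, 17 in siSeh1 and 8 in both, and 4 were in siSCR. The shares of all protein-coding genes were 5.18%, 11.8%, 3.19% and 1.63% in the same order. Cdc25c, a phosphatase that starts mitosis, scored 13.6 in iKO and 19.0 in siSeh1, Mis12, a kinetochore protein, 10.9 and 27.2, Ttk, the spindle checkpoint kinase Mps1, 10.6 and 30.4, and Bub1, another checkpoint kinase, 9.38 and 14.0. Cdc20, an activator of the anaphase ubiquitin ligase, scored 11.2 and Plk1, a mitotic kinase, 6.03, both in siSeh1 alone. Of 32 genes of the G1 to S transition and DNA replication, 5 were in iKO, and each of these 5 was among the 15 in siSeh1. The siSCR list held 4 of the 32, and the same shares of all genes stand beside these counts. E2f1 and E2f3, transcription factors of S phase entry, scored 7.83 and 5.79 in iKO and 10.1 and 7.04 in siSeh1. Mcm5 and Mcm3, subunits of the replicative helicase, scored 17.3 and 10.5 in siSeh1 alone.

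Among chromatin regulators, 2 of 15 NuRD genes were in iKO and 5 in siSeh1. Beside this and the next 2 lists stand the 5.18% and 11.8% of all protein-coding genes. Gatad2a scored 9.48 in iKO and 19.9 in siSeh1 and Mbd3 5.59 and 8.29, and both were in siSCR. Hdac1, the deacetylase, and the histone-binding subunits Rbbp4 and Rbbp7 scored 5.33, 6.28 and 8.29 in siSeh1 alone. Chd4 had no promoter peak at its own gene in either list, nor did Seh1l or Cdkn1a, the cell cycle inhibitor p21. Of 26 Polycomb genes, 4 were in iKO and the same 4 were among the 9 in siSeh1: Ezh2, the methyltransferase (11.2 and 21.1), Suz12, its core partner (5.49 and 11.8), Rybp (6.49 and 6.50) and Jarid2 (4.89 and 4.58). Of 26 genes of the BAF complex, other CHD remodellers and trithorax proteins, 4 were in iKO and 10 in siSeh1, with Smarca2, a BAF ATPase, at 9.38 and 9.06. The siSCR list held 2 of the NuRD genes, 1 of the Polycomb genes and 0 of this last list, beside 1.63% of all protein-coding genes.

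The genes of cell identity followed. Of 24 neural stem cell factors, 5 were in iKO (20.8%), 7 in siSeh1 (29.2%) and 3 in both, beside the 5.18%, 11.8% and 3.19% of all protein-coding genes. Hes1, a Notch effector, scored 3.46 in iKO and 17.3 in siSeh1, and Otx1 scored 2.71 and 8.14. Sox2, a stem cell transcription factor, scored 6.86 and Lhx2, a cortical patterning factor, 6.28 in siSeh1 alone. Of 30 neurogenic and neuronal factors, 0 were in iKO and 5 in siSeh1 (16.7%), which were Sox11, Hes6 (8.29), Btg2 (4.08), Sox4 (4.06) and Dlx2 (2.93). Of 14 oligodendrocyte genes, Olig1 was in both (6.05 and 9.31) and 4 more were in siSeh1, which made 35.7% there. Of 14 astrocyte markers, 0 were in either list. Of 30 ribosomal protein genes, 1 was in iKO (3.33%) and 5 in siSeh1 (16.7%), and of 29 genes of amino acid stress and tRNA charging 2 (6.90%) and 9 (31.0%). Of 31 nucleoporins matched, 2 were in iKO (6.45%) and 5 in siSeh1 (16.1%). The iKO shares of the ribosomal, tRNA charging and nucleoporin lists, and the siSeh1 shares of the ribosomal and nucleoporin lists and of the neurogenic factors, were near those of all genes. The nucleoporins included Nup93, of the pore scaffold, with scores of 6.46 and 13.5, and Nup50, a mobile nucleoporin, at 6.65 and 11.1.

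Peaks as a whole were mostly unshared. Of the iKO peaks 1019 had a siSeh1 summit under 240 bp away (4.79%, 4.50 to 5.08%), and of the siSeh1 peaks 1020 had an iKO summit there (3.79%, 3.56 to 4.02%). Promoters held 70.9% of the shared iKO peaks (68.0 to 73.6%) and 2.70% of the unshared ones (2.48 to 2.94%). In siSeh1 these shares were 71.1% (68.2 to 73.8%) and 8.06% (7.74 to 8.40%). Seen from the promoters, 56.9% of the iKO promoter peaks (54.1 to 59.6%) and 25.8% of the siSeh1 promoter peaks (24.1 to 27.4%) were shared. In iKO 31 peaks lay just inside the limit, at 200 to 239 bp from the other summit, and 36 just outside, at 240 to 279 bp.

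Repeats held fewer of the shared peaks. They held 15.8% of the shared iKO peaks (13.6 to 18.2%) against 49.8% of the unshared (49.1 to 50.5%), and 15.5% (13.3 to 17.9%) against 42.6% (42.0 to 43.2%) in siSeh1. All 722 shared iKO peaks at promoters remained when peaks in repeats were left out, so none of these lay in a repeat. The contrast therefore carries the promoter split as well. The share in repeats as a whole was not compared among peaks away from promoters alone. Of 5176 iKO peaks in LINE elements, which are long retrotransposons, 30 were shared (0.580%, 0.391 to 0.826%). LTR elements, remnants of retroviruses, gave 1.33% (0.949 to 1.80%) and SINE elements, short retrotransposons, 0.898% (0.465 to 1.56%). Introns and intergenic sequence gave 1.17% and 1.72%.

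Satellite repeats were the exception among repeats. Of 108 iKO satellite peaks 72 were shared (66.7%, 56.9 to 75.4%), and of 117 in siSeh1 71 were (60.7%, 51.2 to 69.6%). Most belonged to GSAT_MM, the major satellite of mouse pericentromeric chromatin, with 70 of 85 iKO peaks and 70 of 84 siSeh1 peaks shared. They were packed in few places, since 36 of the 72 shared iKO satellite peaks lay on the unplaced sequence JH584304 and 29 in the first assembled 200000 bp of chromosome 9, from 3000001 to 3200000. Summits of shared iKO satellite peaks lay a median of 11.5 bp from the siSeh1 summit, against 50 bp at promoters and 67 bp elsewhere. With satellites left out, 1.13% of the iKO peaks away from promoters were shared (0.988 to 1.29%), and 0.933% of the siSeh1 peaks (0.815 to 1.06%). How reads that match several satellite copies were placed is not stated in the labels or headers.

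**Figure D3:**
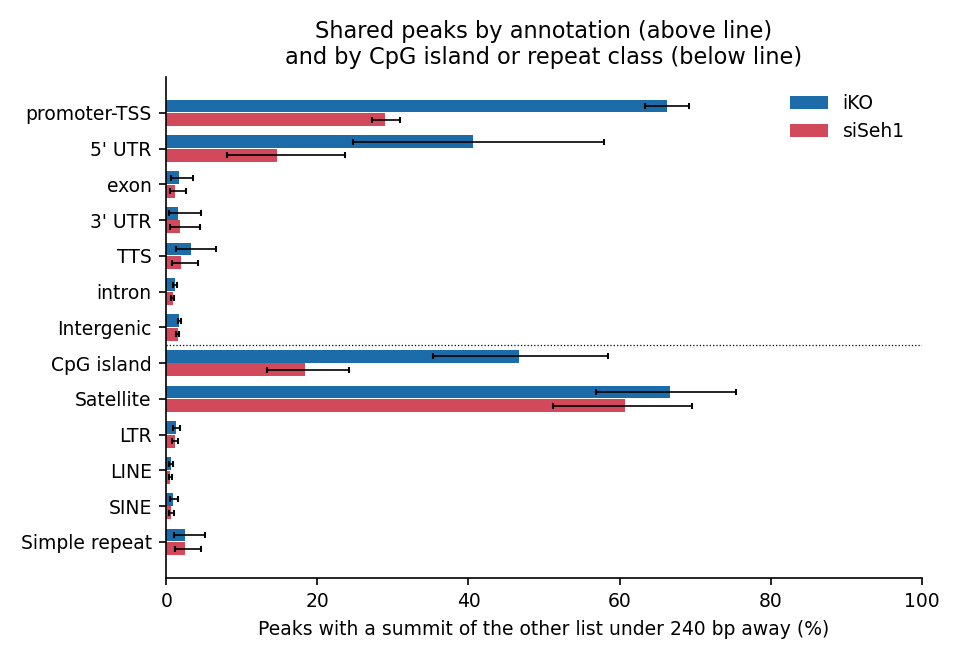
Percent of peaks with a summit of the other list under 240 bp away (x axis) for iKO (blue) and siSeh1 (red), by annotation class (above the dotted line) and by CpG island or repeat class (below it). Bars are exact 95% binomial intervals; promoters, CpG islands and satellites stand well above introns, intergenic sequence, LINE, LTR and SINE elements.

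Shared and unshared peaks were set beside the silencing control. Of the shared iKO peaks 28.1% (25.3 to 30.9%) had a siSCR summit under 240 bp away, against 0.276% of the unshared (0.209 to 0.359%). In siSeh1 the shares were 28.5% (25.8 to 31.4%) and 0.463% (0.384 to 0.553%). In Chd4 Ctrl the count was 2 of the 1019 shared iKO peaks and 2 of the 1020 shared siSeh1 peaks. Score moved with sharing too: in 10 equal groups of all peaks by score, 29.7% of the iKO and 28.5% of the siSeh1 peaks were shared in the highest group, and 1.03% and 0.520% in the lowest.

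The promoter sequences were then compared, over windows of 300 bases from 250 before to 50 after the start site. RefSeq windows within 1000 bp of the summit were found for 587 of 698 protein-coding shared genes, 351 of 436 in iKO alone and 1531 of 1894 in siSeh1 alone. The window held the summit itself for 473 of the 587 shared genes (siSeh1 summit). It did so for 162 of the 351 genes in iKO alone and 989 of the 1531 in siSeh1 alone. The shares that follow cover windows with and without the summit, so the groups differ in this too. CCAAT on either strand was in 84.3% of the shared windows, 52.1% of those in iKO alone (46.8 to 57.5%) and 56.6% of those in siSeh1 alone (54.0 to 59.1%). It was in 38.2% of all 21263 protein-coding windows (37.5 to 38.9%) and in 86.2% of the siSCR windows (81.8 to 89.9%). Windows with 2 or more boxes made up 64.9% of the shared group, 19.4% and 30.7% of the single-list groups and 12.8% of all windows. Score and the box moved together: in 5 equal groups of promoter genes by score, the share with CCAAT was 89.4% in the highest and 46.0% in the lowest group in iKO, and 86.6% and 40.9% in siSeh1. In the highest group of siSeh1, 86.7% of the shared genes and 86.2% of the genes in siSeh1 alone had the box. In the lowest group of siSeh1 the shares were 19 of 22 shared genes and 38.4% of the genes in siSeh1 alone (33.6 to 43.4%).

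**Figure D4:**
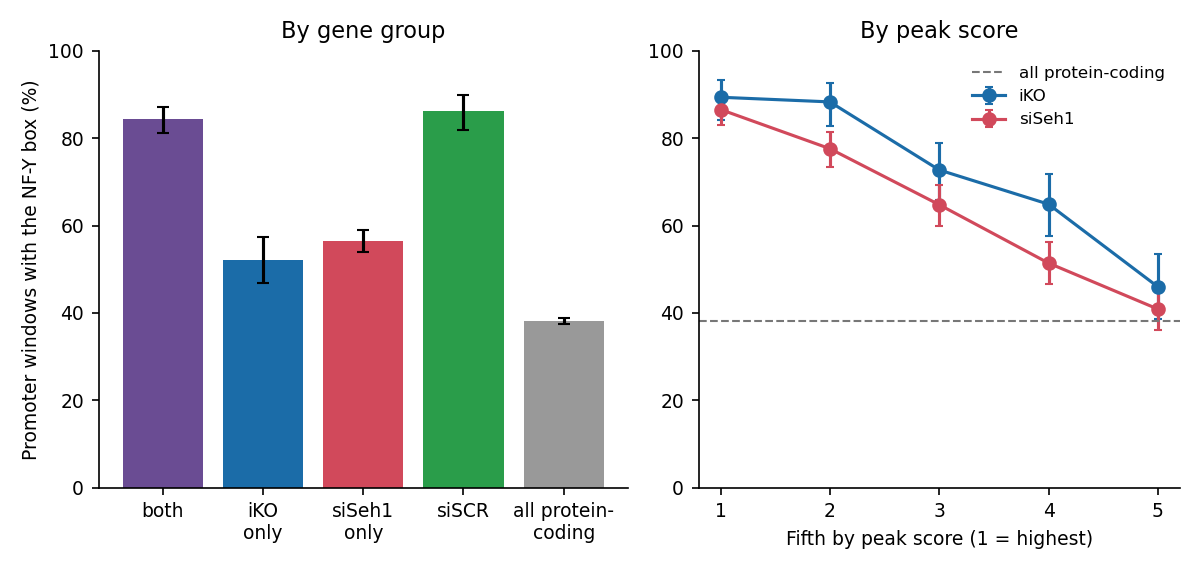
Percent of promoter windows with the NF-Y box, CCAAT on either strand (y axis), by gene group (left) and in 5 equal groups of the promoter genes by peak score (right, 1 is the highest; iKO blue, siSeh1 red). Bars are exact 95% binomial intervals and the dashed line is all protein-coding windows at 38.2%; shared genes stand at 84.3%.

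Base composition was compared as well. Shared windows had a median of 64% G or C and all protein-coding windows 56.3%. Among all windows of at least 60% G or C, 32.5% had CCAAT (31.5 to 33.6%), while 82.2% of the shared windows of that kind did (78.2 to 85.7%). The GC box GGGCGG, known to be bound by Sp1, was in 81.1% of the shared windows (77.7 to 84.2%) and 46.2% of all windows. Among windows of at least 60% G or C it was in 87.3% of the shared (83.8 to 90.3%) and 82.0% of all. The same letters in reverse order, TAACC, searched on both strands and added after the data were seen, were in 19.6% of the shared windows (16.5 to 23.0%) and in 25% of all windows. The TATA box TATAAA was in 4.26% of the shared windows (2.77 to 6.22%) and in 12.6% of all windows. Among windows of at least 60% G or C the 2 groups were near each other for both. TATAAA was there in 3.05% of the shared (1.63 to 5.16%) and 3.28% of all, and TAACC in 13.6% (10.5 to 17.2%) and 16.3%. A match to these letters is a description and not a binding site.

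The boxes lay close to the Chd4 summits. For shared genes with a box in a window that held the summit, the nearest box was a median of 20 bp from the siSeh1 summit (quartiles 9 and 39.2 bp, 436 genes) and 20 bp from the iKO summit (9 and 39 bp, 426 genes). It lay within 50 bp for 81.7% (77.7 to 85.2%) and 80.5% (76.4 to 84.2%). For genes in siSeh1 alone the median was 25 bp and for genes in iKO alone 40.5 bp. The nearest GC box, GGGCGG on either strand, lay a median of 43 bp from the siSeh1 summit of shared genes and the nearest TAACC 67 bp. For genes in iKO alone the order was the other way, with the GC box at a median of 34 bp (within 50 bp for 64.7%) and CCAAT at 40.5 bp (58.5%). For genes in siSeh1 alone the GC box lay at 34.5 bp, beside 25 bp for CCAAT. Windows with more boxes have a box closer to any position, so these medians depend on the number of boxes as well. For shared genes, siSeh1 summits and boxes also lay at similar places from the start site, at medians of -88 bp and -87 bases. The distance that this placement alone would give was not tested. In bins of 25 bases, the box was most frequent at 75 to 51 bases before the start site, in 32.5% of the shared windows against 8.19% of all windows.

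**Figure D5:**
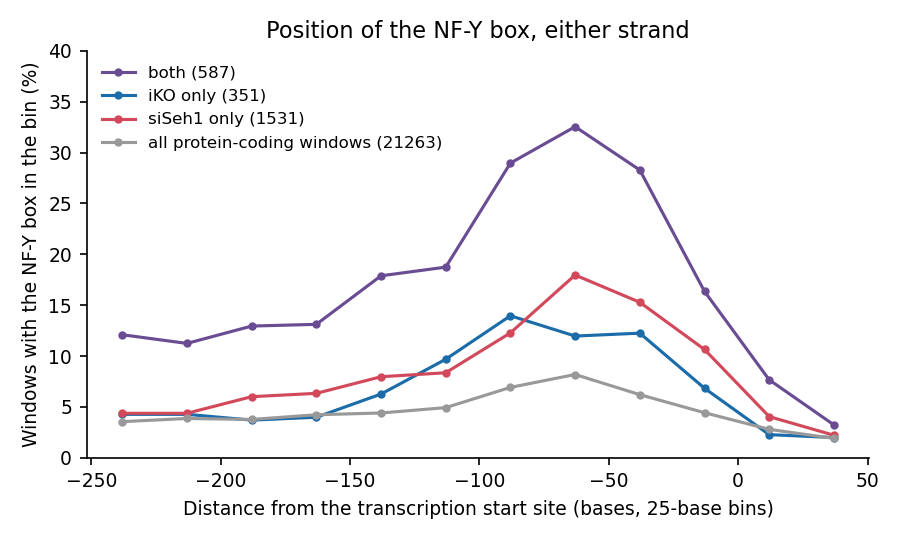
Percent of promoter windows with the NF-Y box, CCAAT on either strand, in each bin of 25 bases (y axis) by distance from the transcription start site (x axis), for shared genes, genes in 1 list alone and all protein-coding windows (numbers of windows in the key). All groups are highest within the 100 bases before the start site, and the shared genes reach 32.5%.

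By gene list, 9 of 10 shared endoplasmic reticulum genes with a window had CCAAT, as did 7 of 7 members found in 1 list. Of the shared mitosis genes 7 of 7 had it, of the shared sterol genes 6 of 7, of the shared G1 to S genes 3 of 5 and of the shared heat shock genes 1 of 2. These counts are small, the higher ones stand near the 84.3% of all shared windows, and differences between lists were not tested. Hspa5 carried 4 boxes, with the nearest 11 bp from the siSeh1 summit, Eif2ak3 carried 6, the nearest at 19 bp, and Mvk, mevalonate kinase, carried 5, the nearest at 2 bp. Of the shared BAF, CHD and trithorax genes 0 of the 3 with a window, Smarca2, Actl6a and Kdm6a, had the box, and E2f1, Xbp1 and Fads2 had none either.

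Peaks in exons of genes of another tissue were counted beside these results, since they differed between the libraries. Of 40 genes abundant in liver, 21 had a peak in an exon or untranslated region in iKO, 2 in siSeh1 (C3 and Hp) and 0 in siSCR and in Ctrl. This list was drawn up for exon peaks, with earlier results of these data known, so its counts are a description and not a test. Over all protein-coding genes such a peak was found for 2.56% in iKO, 3.53% in siSeh1, 0.242% in siSCR and 0.0502% in Ctrl, so the last 2 lists held few exon peaks of any gene. The highest peak of the whole iKO list lay in exon 3 of Apoe, an apolipoprotein also made by glia, with a score of 49.8. Of exon peaks more than 1000 bp from a start site, those next in score included Hp, haptoglobin (29.8), and Apoa1, an apolipoprotein (18.9). Ahsg, fetuin (13.1), and Alb, albumin (12.5, the highest of 3), were also among them. Apoa1, Ahsg and Alb had 0 peaks in exons or untranslated regions in siSeh1. In promoter windows the same list gave 4 of 40 in iKO (Ahsg, Kng1, Tat and Cyp2c29) and 0 in siSeh1, beside 5.18% and 11.8% of all protein-coding genes. These 4 summits lay 226, 289, 781 and 778 bp after the start site, and the Kng1 score of 5.41 was that of its exon peak. Tat scored 4.87 in the promoter window and 5.59 at its exon peak, and Cyp2c29 was not among the genes with an exon peak. The 2 counts are therefore not fully separate observations. Of 25 genes of other tissues, 8 had a peak in an exon or untranslated region in iKO and 0 in siSeh1. In siSeh1 the highest exon peaks more than 1000 bp from a start site lay in Seh1l (23.2) and Chd4 (14.4), with 3 and 7 peaks in all. In iKO these genes had 0 and 2 exon peaks, and in siSCR 1 and 6. The part of these exon peaks in the differences between the lists was not tested. Of the first 20 peaks by score, 12 were shared in iKO and 18 in siSeh1.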

How the data were processed

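Chd4 ChIP-seq peak lists of 2 libraries were compared, with the other Chd4 lists of the series as background. The lists, deposited by the authors, give positions on mm10 with HOMER annotation, per the file headers. The submitters' processing notes list Bowtie2 and HOMER with no version and human builds, although genes and positions are mouse. The peak score is the authors' score, and its scale is not stated; no source used here names the peak caller, threshold or input. Start, end and distance to the start site were used as deposited. Every peak was placed at its midpoint. Of the code, the step that finds the nearest summit of the other list was tested on simulated lists. Shares carry Clopper-Pearson 95% intervals. RefSeq tables of GRCm38.p6 gave gene types and promoter sequences, and 99.9% of the gene identifiers matched. The work used Python 3.11.15, numpy 2.4.6, pandas 2.3.3, scipy 1.17.1 and matplotlib 3.10.9.

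The members, the 24 gene lists and the 14 motifs were chosen with earlier results of these data known. Of the motifs not described in the text, the ETS core was in 12.1% of the shared windows and 11.6% of all. The E-box was in 11.1% and 7.84%, the cell cycle homology region in 10.7% and 16.0%, and the sterol regulatory element in 1.19% of each. The rest were each in at most 4.77% of the shared windows, the share of the heat shock element unit (7.21% of all windows). Genes named were the first 15 shared genes by mean rank, the first 10 in each list alone, the 5 with the largest difference in place each way, members of the gene lists, and Seh1l, Chd4 and Cdkn1a. Predicted, microRNA and small nucleolar genes were left out, and some genes that the rule names are not reported here. In the gene lists not described in the text, cytosolic heat shock chaperones had 3 members of 20 in iKO and 8 in siSeh1, cyclin-dependent kinase inhibitors 2 and 3 of 8, p53 targets 2 and 5 of 24, GATOR complexes 1 and 1 of 8, growth factor response 1 and 3 of 24, splicing factors 2 and 7 of 27, microglia, endothelial and mural markers 0 and 1 of 14, and genes of other tissues 0 and 1 of 25, beside 5.18% and 11.8% of all protein-coding genes.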

Additional observations from a re-analysis of the deposited data

How the results depend on the processing

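No paired analysis was possible because each group had 1 library. Of 56 values recomputed under alternatives, 22 stayed within the interval of the reported value, or for counts within 1.5 times, and 34 moved; with the same minimum score of 5 in both lists, which assumes a common scale, 412 promoter genes were shared. The share of iKO promoter genes also in siSeh1 was 64.5% with a window of 500 bp, 49.8% with 2000 bp, 61.6% for protein-coding genes, 70.7% in the 5000 peaks of highest score and 75.5% at the minimum score. The share of siSeh1 genes in iKO was 24.5% with 2000 bp, 32.6% in the 5000 peaks and 29.6% at the minimum score. Shared iKO peaks made up 3.78% at under 100 bp, 5.57% at under 500 bp, 7.71% without repeats, 4.47% without satellites, 13.8% in the 5000 peaks and 31.5% at the minimum score. Shared siSeh1 peaks made up 2.99%, 4.41%, 5.41%, 3.54%, 13.8% and 18.7% in the same order, and 4.64% at the length of the shorter list. Promoters held 63.6% of the shared iKO peaks at under 500 bp, 74.9% on autosomes, 84.8% without repeats, 76.2% without satellites, 80.4% in the 5000 peaks and 79.3% at the minimum score. They held 1.87% and 4.30% of the unshared iKO peaks with windows of 500 and 2000 bp, 3.34% at under 100 bp, 5.21% without repeats, 5.01% in the 5000 peaks and 10.8% at the minimum score. In every setting run, promoters held a larger share of the shared than of the unshared iKO peaks. Leaving out satellites, the reversed letters TAACC and the sequence windows were chosen after seeing the data; the CCAAT share of shared genes was 81.9% in the 250 bases before the start site and 84.7% for genes with 1 window.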
